A study of Mus musculus with 30 samples.

Results

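Gene expression in the amygdala was compared with gene expression in blood in mice that had not been stressed or conditioned. The comparison rests on 6 amygdala and 4 blood libraries of the home cage (HC) group and covers 13885 of the 23303 gene entries measured, namely those whose mean reached 1 FPKM in HC amygdala or in HC blood. FPKM, fragments per kilobase of transcript scaled to the mapped fragments, allows for the length of a transcript and the depth of a library. Of the 13885 genes, 9286 reached 1 FPKM in both tissues, 3056 in amygdala only and 1543 in blood only, and 9418 entries stayed below it in both. Kif27, at a mean of 1.0 FPKM in amygdala, was among the last genes inside this limit, and Maml3, at 0.999 FPKM in blood, among the first outside. A gene that entered through 1 tissue alone had to differ between the tissues to some degree, so counts below describe the levels and are not support for a difference between tissues as such.

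All mice were adult C57BL/6J males of 2 to 3 months, and 2 mice of a group were pooled for each library, so replicates are separate pools. HC mice were handled and killed under basal conditions. FC mice underwent auditory fear conditioning and were killed 2 h later, and Immo+FC mice had been immobilized before the same conditioning. All were decapitated under brief isoflurane, trunk blood was collected at the neck, and the amygdala was punched bilaterally around the basolateral nucleus, so that punches can hold neighbouring tissue. Blood RNA, but not amygdala RNA, was depleted of globin transcripts, and kits for RNA extraction differed between the tissues, so tissue and preparation cannot be told apart. The tissue difference was measured again in 6 FC amygdala and 5 FC blood libraries and in 4 Immo+FC amygdala and 5 Immo+FC blood libraries, which had no part in choosing the genes.

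The amygdala is a group of nuclei in the temporal lobe that links sensory cues to threat, and its tissue holds neurons, astrocytes, oligodendrocytes, microglia and vessels. Whole blood holds red cells, whose youngest forms still carry RNA, platelets, which have no nucleus but keep RNA from the megakaryocyte, and white cells of the myeloid and lymphoid lines. Many basic cell functions, such as membrane fusion, ATP production or actin assembly, are encoded by families of related genes, and different members serve different cell types. Because bulk RNA was measured, fewer cells of a type and less RNA per cell cannot be told apart.

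HC amygdala libraries held 24165634 to 27491655 sequences (median 27042585), of which 91.8 to 92.3% mapped to a single place. HC blood libraries 1 to 3 held 18552641 to 20101794 sequences, library 4 held 9081977, and 61.1 to 72.6% mapped to a single place. Summed over entries, FPKM ranged from 284860 to 292066 in amygdala and from 664738 to 1674854 in blood, highest in blood library 3. The 10 highest entries took 3.25 to 4.06% of this sum in amygdala and 18.1 to 31% in blood. Median-ratio factors of the 30 libraries lay between 0.975 and 1.01. Computed from the 10 HC libraries alone, they were 1.03 to 1.05 in amygdala and 0.925 to 0.947 in blood. By that measure the deposited values of both tissues were near 1 common scale, with an offset between the tissues in HC.

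Differences are given as log2(FPKM + 0.1) in amygdala minus blood with their standard errors, a scale that understates the difference of a gene near 0 in 1 tissue. A gene was called when limma's test against a 2-fold change gave an adjusted p under 0.05 over all 13885 genes. Levels were also ranked inside each library as percentiles of the 13885 genes, with 100 at the top. Blood values are listed for HC libraries 1 to 4 in that order, and amygdala values as the lowest, the median and the highest of 6 libraries.

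The tissue labels were first checked against cell type markers. All 18 neuron markers were called higher in amygdala, with a median log2 difference of 6.26, against 0.33 over all genes. Snap25, which encodes a membrane fusion protein of synapses (chromosome 2, 136713453 to 136782428, GRCm38), was at 817, 888 and 943 FPKM in amygdala and at 11.7, 3.60, 14.5 and 16.5 FPKM in blood. Every amygdala library was thus far above every blood library, and the log2 difference was 6.44 ± 0.35 (adjusted p = 3.01e-08). Slc17a7, the vesicular glutamate transporter of excitatory neurons, was at 378, 424 and 451 FPKM in amygdala and at 5.51, 1.24, 5.43 and 7.24 FPKM in blood. The groups again lay apart, and the lowest blood value of both genes was that of library 2. Called higher in amygdala were also 14 of 14 inhibitory neuron markers, 11 of 12 astrocyte markers and 14 of 15 oligodendrocyte markers.

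Blood libraries carried the markers of each major blood lineage. Higher in blood were 15 of 15 neutrophil, 13 of 14 platelet, 10 of 12 monocyte, 12 of 13 T cell, 12 of 14 B cell and plasma cell and 12 of 12 NK cell markers. S100a8, a calcium-binding protein of neutrophils, was at 0, 0.674 and 1.21 FPKM in amygdala and at 2735, 2168, 13855 and 2105 FPKM in blood. Cd79b, a part of the B cell receptor, was at 0.0762, 0.129 and 0.306 FPKM in amygdala and at 841, 999, 545 and 1051 FPKM in blood. Blood library 3 was highest for the neutrophil gene and lowest for the B cell gene. Its summed erythroid and neutrophil markers were 163404 and 29876 FPKM, at the top of ranges that began at 18076 and 4525 FPKM in the other libraries. Without blood libraries 3 and 4, 4910 genes were higher in amygdala and 3158 in blood.

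Some erythroid genes ran against their label in the table. The merged entries of Hba-a1 with Hba-a2 and of Hbb-b1 with Hbb-bs, the adult globin chains, were listed at 0 in all 4 blood libraries and at medians of 16.9, 10.8 and 27.0 FPKM in amygdala. The parts of globin depletion and of a failed estimate in these 0 values were not tested. Hbb-bt, the other adult beta globin entry, was at 13405, 13263, 128031 and 68605 FPKM in the same blood libraries. A comparison of globins between the tissues therefore depends on the entry. Muscle markers were low in both tissues, at summed levels of 15 to 16.5 FPKM in amygdala and 15.2 to 34.2 FPKM in blood. These sums include Pvalb, which is also on the inhibitory neuron list, so they cannot be read as muscle RNA alone. Pvalb was the 1 gene of the muscle list called higher in amygdala. Of 8 muscle genes in the comparison, 5 were higher in blood, among them Mylpf, a light chain of fast muscle myosin, at 0.212, 0.278 and 0.400 FPKM in amygdala and 4.92, 7.69, 7.0 and 11.9 FPKM in blood.

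The order of genes differed widely between the tissues. Spearman's correlation over the 13885 genes was 0.984 to 0.994 between amygdala libraries, 0.954 to 0.985 between blood libraries and 0.294 to 0.332 between a library of each. Called higher in amygdala were 4814 genes (34.7% of those tested), called higher in blood were 3155 (22.7%), and 5916 were not called. With no minimum change the counts were 6984 (50.3%) and 5208 (37.5%), and with a 4-fold minimum 3485 (25.1%) and 1966 (14.2%). Called genes with a log2 difference of 5 or more numbered 1329 toward amygdala and 792 toward blood. The libraries of the tissues did not overlap for 11352 genes, or 81.8%, where 57.4% were called in either direction. The median SD of log2(FPKM + 0.1) over genes was 0.114 in amygdala and 0.333 in blood. Standard errors take 1 spread per gene for both tissues, although blood varied more and had fewer libraries, so they can be too small. With array weights by tissue, 4647 genes were called higher in amygdala and 2943 in blood.

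The balance between the directions depended on the scaling. With values as deposited, 60.4% of called genes were higher in amygdala. Scaling every library to a common sum moved the median difference up by 1.70 and gave 8298 genes higher in amygdala and 1598 in blood, or 83.9%. Ranks, which need no common scale, gave 4770 genes higher in amygdala (34.4%) and 4795 higher in blood (34.5%) by at least 10 percentile points, or 49.9%. Of the genes called in FPKM, 4304 higher in amygdala and 2903 higher in blood were called in the same direction by rank and 0 in the other. Among the compared genes, 1371 had a mean percentile in the top 10% in amygdala and 1345 in blood. Both lists shared 532 genes, 38.8 and 39.6% of each list.

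**Figure D1:**
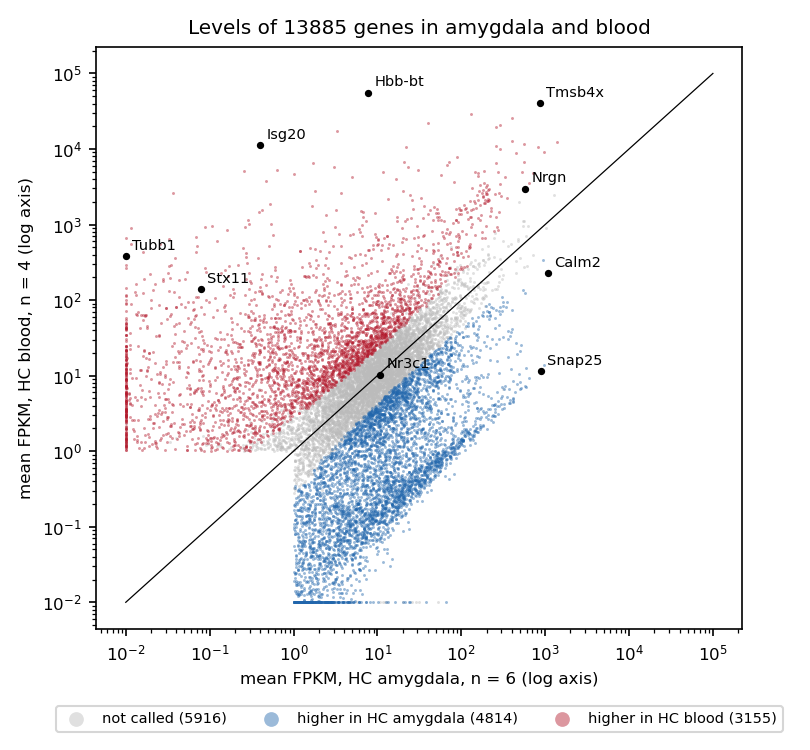
Mean level of each of the 13885 genes in HC amygdala (x axis, 6 libraries) and HC blood (y axis, 4 libraries), both in FPKM on log axes, with means under 0.01 drawn at 0.01. Blue points are the 4814 genes called higher in amygdala, red points the 3155 called higher in blood and grey points the 5916 not called, the line marks equal levels, and a band of blue points runs parallel to it at the lower right, where Snap25 lies.

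The 10 highest entries of the amygdala were Mir703, Mir686 with Psmb5, Calm2, Cst3, Fth1, Cpe, Aldoa, Snap25, Tmsb4x and Rplp1. Calm2, one of the calmodulin genes, was at 1025, 1092 and 1137 FPKM in amygdala and at 193, 197, 217 and 294 FPKM in blood, a log2 difference of 2.29 ± 0.13. Cpe, which processes neuropeptides, was at 918, 971 and 1052 FPKM in amygdala and at 13.8, 5.23, 16.1 and 19.7 FPKM in blood. Both were called higher in amygdala without overlap, whereas Cst3, the protease inhibitor cystatin C, overlapped between the tissues, at 976, 1013 and 1088 FPKM in amygdala and 637, 706, 1201 and 1004 FPKM in blood. Aldoa, a glycolytic aldolase, was 2.81 times as high in amygdala. The values of the entries of Mir703 and of Mir686 with Psmb5 are uncertain because a microRNA gene is far shorter than a sequenced fragment and the second entry joins 2 genes.

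Among the 10 highest entries of blood were Hbb-bt, Tmsb4x, Ftl1, Rpl41, Gpx1, Tpt1, Ube2l6, Rps27 and Mir703. After Hbb-bt came Tmsb4x, which binds actin monomers, at 28646, 26677, 47506 and 60236 FPKM in blood and 772, 860 and 932 FPKM in amygdala. Ftl1, the ferritin light chain that stores iron, was at 123, 131 and 142 FPKM in amygdala and at 21876, 15117, 57090 and 21802 FPKM in blood, a log2 difference of −7.59 ± 0.30. Gpx1, a glutathione peroxidase of red cells, had a log2 difference of −8.82 ± 0.35. Tmsb4x was thus among the 10 highest entries of both tissues, at percentiles of 99.95 in amygdala and 99.99 in blood. Ube2l6, which attaches the interferon-induced protein ISG15 to its targets, was at 2.81, 3.4 and 3.65 FPKM in amygdala and at 11171, 7703, 39515 and 10240.0 FPKM in blood. Its percentile was 29.9 in amygdala, so high blood levels did not go with high amygdala levels for this gene.

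Among transcripts with at least 20 FPKM in amygdala and a mean above 0.1 FPKM in blood, the largest differences belonged to genes of neurons. Cacng7, a partner subunit of AMPA receptors, was at 62.5, 68.8 and 79.9 FPKM in amygdala and at 0.579, 0.484, 0 and 0.655 FPKM in blood, a log2 difference of 7.40 ± 0.48. Elavl4, an RNA-binding protein of neurons, was 201 times as high in amygdala. Lmo3, a transcription cofactor with high levels in the amygdala, was at 66.0, 76.4 and 82.6 FPKM in amygdala and at 0.725, 0.263, 2.21 and 0 FPKM in blood. The 10 genes so chosen had log2 differences of 6.85 to 7.40.

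Toward blood, genes chosen by the same limits differed by more. Isg20, an exonuclease that degrades RNA, was at 0.171, 0.471 and 0.506 FPKM in amygdala and at 6483, 4875, 25088 and 8271 FPKM in blood, a log2 difference of −14.20 ± 0.42 (adjusted p = 1.54e-10). Pf4, the platelet chemokine, was at 0, 0.534 and 0.703 FPKM in amygdala and at 2910.2, 2362, 4071 and 5831 FPKM in blood. Cd74, the invariant chain of MHC class II, whose entry is merged with Mir5107, was at 0.682, 0.964 and 1.42 FPKM in amygdala and at 4394, 5601, 3045 and 5394 FPKM in blood. In both directions only called genes whose libraries did not overlap between the tissues were chosen, so their lack of overlap is no result. The 10 genes chosen with at least 20 FPKM in blood and a mean above 0.1 FPKM in amygdala had log2 differences from −14.20 to −11.69. Genes below that amygdala level, such as Tubb1 at −11.80, were not among them.

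A ceiling was visible in one direction only among the compared genes. Of 3184 genes with at least 20 FPKM in amygdala, 508 had a log2 difference between 5.5 and 6.5 and 79 a larger one. Of 3157 genes with at least 20 FPKM in blood, 139 lay between −6.5 and −5.5 and 341 lay beyond. The 508 genes had a median log2 difference of 6.11 in HC, and the same genes had medians of 7.65 in FC and 7.53 in Immo+FC. Brain transcripts in HC blood moved with this: 46 brain markers stood at a median of 1.48, 0.501, 1.92 and 1.81% of their mean amygdala level in the 4 HC blood libraries. In the 5 FC blood libraries the medians were 0.145 to 0.634% and in the 5 Immo+FC blood libraries 0.0720 to 0.605%. In the other direction, 70 blood markers stood at medians of 0.0133 to 0.0390% of their mean blood level in the 6 HC amygdala libraries. The part of these brain transcripts in the ceiling was not tested.

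**Figure D2:**
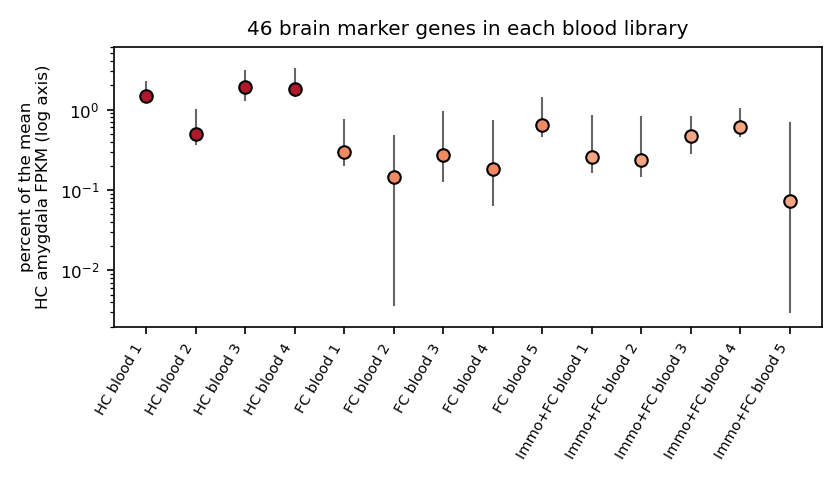
Level of 46 brain marker genes in each of the 14 blood libraries as a percent of their mean FPKM in HC amygdala (y axis, log scale). Points are medians over genes and lines run from the lower to the upper quartile, with quartiles under 0.003 drawn at 0.003, and HC libraries 1, 3 and 4 have the highest medians, from 1.48 to 1.92%.

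At the other end, some genes held almost the same rank in both tissues. Among genes of at least 50 FPKM in both, the smallest difference of percentile belonged to Ndufb7, a subunit of respiratory complex I, at 96.4 in each. Its values were 91.7, 97.3 and 112 FPKM in amygdala and 141, 144, 225 and 188 FPKM in blood, which did not overlap and were not called. Pink1, a mitochondrial kinase linked to Parkinson disease, was at 102, 104 and 112 FPKM in amygdala and 167, 101, 474 and 251 FPKM in blood, with percentiles of 96.7 in both. Ribosomal genes were also among these 10, since equal rank did not mean equal FPKM. Rpl3, a protein of the large subunit, had a percentile of 98.6 in both, and its FPKM was 185, 194 and 200.04 in amygdala and 651, 628, 700 and 647 in blood.

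Genes of protein synthesis as a group were higher in blood in FPKM, while their ranks were near the top in both tissues. All 30 cytosolic ribosomal protein genes were called higher in blood, with a median log2 difference of −3.58, and 24 were called after scaling to a common sum. By rank 2 were called, and the median difference was −1.42 percentile points. Their median percentile was 98.1 in amygdala and 99.4 in blood, so a call of at least 10 points toward blood was hardly possible. Of 28 nuclear-encoded genes of oxidative phosphorylation, 2 were higher in amygdala, 3 in blood and 23 were not called, whereas 23 were higher in amygdala after scaling to a common sum. Of 29 proteasome genes, 1 was higher in amygdala and 8 in blood, beside 34.7 and 22.7% over all genes. Their median of −0.59 turned to 1.12 after that scaling. Psme1, part of an activator of the immunoproteasome, was at 29.6, 31.9 and 34.4 FPKM in amygdala and at 226, 258, 294 and 277 FPKM in blood. Of 18 genes often used as references in PCR, 1 was higher in amygdala and 8 in blood, and their median of −0.58 also turned, to 1.14 after scaling to a common sum, to 0.11 after quantile normalization and to 0.12 percentile points by rank. Gapdh, a glycolytic enzyme, was at 574, 597 and 646 FPKM in amygdala and 252, 225, 406 and 259 FPKM in blood, with a log2 difference of 1.11 ± 0.15 that was not called, but was called without blood library 3, at 1.29. Of 18 cell division genes, 16 were higher in blood and 0 in amygdala, and 10 were higher in blood after scaling to a common sum.

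**Figure D3:**
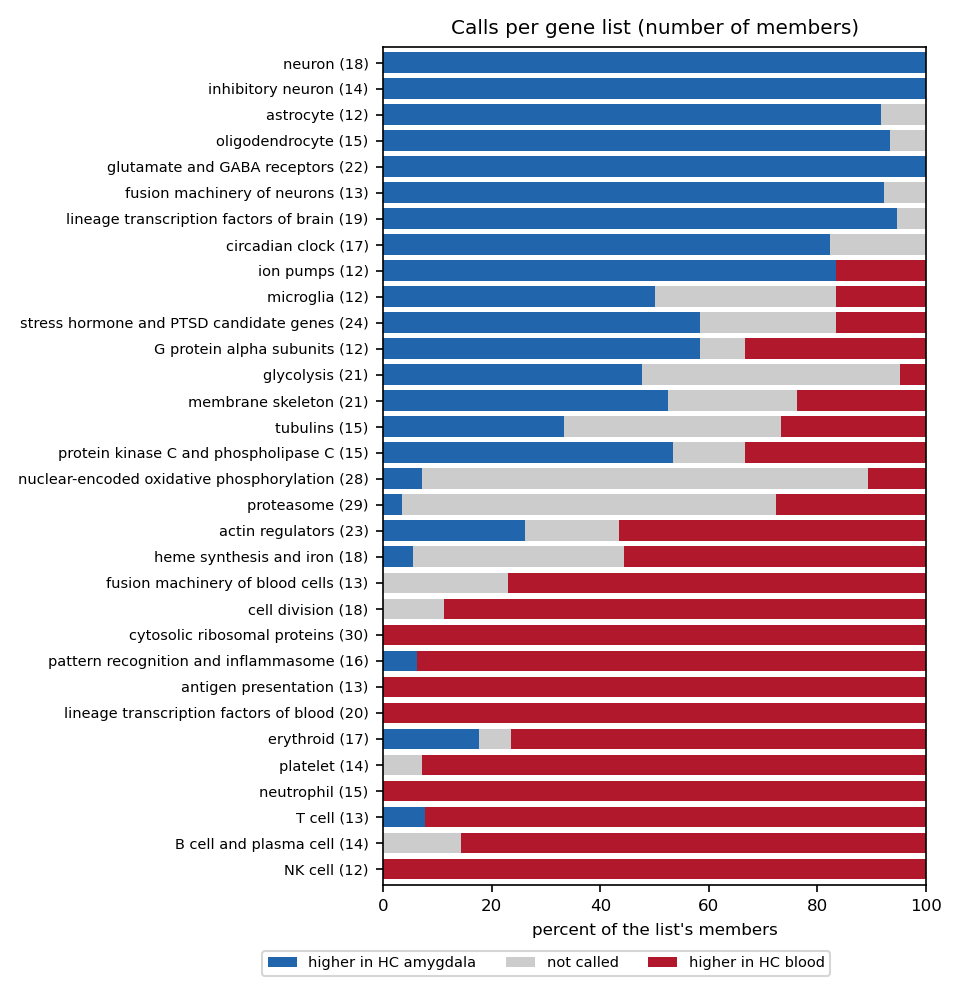
Share of the compared genes of each gene list (y axis, number of genes in brackets) called higher in HC amygdala (blue), called higher in HC blood (red) or not called (grey), in percent on the x axis. Neuron, receptor and brain transcription factor lists are at the top with 0 genes higher in blood, and ribosomal, antigen presentation and leukocyte lists are near the bottom.

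Families that drive membrane fusion had members higher in amygdala and members higher in blood. Vesicles fuse with a target membrane through SNARE proteins such as SNAP-25, syntaxins and VAMPs, and Unc13 proteins prepare the vesicles. Of 13 entries of the neuronal set 12 were higher in amygdala and 0 in blood, beside 34.7 and 22.7% over all genes. Of 13 genes of the set used by blood cells 10 were higher in blood and 0 in amygdala, or 6 and 1 after scaling to a common sum. The sets were drawn up by the cells that use these genes, so the counts are no test of such a division. Snap23, the counterpart of Snap25 outside neurons (chromosome 2, 120567671 to 120601255), was at 4.16, 4.45 and 5.13 FPKM in amygdala and at 126, 109, 128 and 166 FPKM in blood, a log2 difference of −4.82 ± 0.11. Stx1a, the syntaxin of synapses, was at 91.9, 115 and 132 FPKM in amygdala and at 3.80, 3.26, 5.52 and 5.86 FPKM in blood. Stx11, the syntaxin of cytotoxic and platelet granules, was at 0.0400, 0.0769 and 0.133 FPKM in amygdala and at 146, 117, 114 and 177 FPKM in blood. The 2 syntaxins thus stood on opposite sides, with log2 differences of 4.61 ± 0.17 and −9.61 ± 0.19. Unc13a, which primes synaptic vesicles, and Unc13d, which primes cytotoxic granules, had log2 differences of 6.17 ± 0.20 and −6.76 ± 0.14. Vamp7, of lysosomal fusion, was not called, at 1.05 ± 0.12.

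The membrane skeleton, a mesh of spectrin, ankyrin and actin under the plasma membrane, was described first in red cells and has relatives in axons. Of its 21 genes, 11 were higher in amygdala and 5 in blood, beside 34.7 and 22.7% over all genes. Tmod2, a tropomodulin of neurons that caps actin filaments, was at 39.9, 48.2 and 50.8 FPKM in amygdala and 0.523, 0.247, 0.392 and 0.542 FPKM in blood. Tmod3, its broadly expressed relative, was at 4.69, 5.26 and 5.41 FPKM in amygdala and 63.3, 61.2, 48.3 and 64.7 FPKM in blood. These tropomodulins did not overlap between tissues and went opposite ways. Ank1, the ankyrin of red cells, did overlap, at 5.16, 5.87 and 6.38 FPKM in amygdala and 2.47, 1.93, 39.0 and 8.97 FPKM in blood, where library 3 was again highest. Its log2 difference was −0.16 ± 0.68 and became 1.36 without blood libraries 3 and 4. Sptb, the beta spectrin named for red cells, was higher in amygdala, at 13, 14 and 15.2 FPKM against 1.73, 1.70, 13.1 and 3.01 FPKM in blood, and overlapped there through library 3. Its call was lost when any single library other than blood library 3 was left out, at log2 differences of 1.73 to 2.06.

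Of 21 glycolysis genes, 10 were higher in amygdala, 1 in blood and 10 were not called, while 18 were higher in amygdala after scaling to a common sum and 16 after quantile normalization. Eno2, the enolase of neurons, was at 287, 299.9 and 302 FPKM in amygdala and at 4.34, 1.85, 6.12 and 4.33 FPKM in blood. Eno1, the enolase of most other cells, was at 229, 261 and 267 FPKM in amygdala and 117, 129, 182 and 125 FPKM in blood and was not called. Aldoc and Ldhb, the aldolase and lactate dehydrogenase forms that are prominent in brain, had log2 differences of 5.62 ± 0.20 and 4.42 ± 0.13. The gene higher in blood was Hk3, a hexokinase of myeloid cells, at 0.365, 0.496 and 0.592 FPKM in amygdala and 9.34, 10.1, 21 and 13.8 FPKM in blood. Of 12 ion pump genes, 10 were higher in amygdala and 2 in blood. Atp2a2 and Atp2a3, which pump calcium into the endoplasmic reticulum, went opposite ways, at log2 differences of 3.50 ± 0.09 and −6.12 ± 0.17.

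Tubulins, the subunits of microtubules, gave 5 genes higher in amygdala, 4 in blood and 6 not called among 15, shares near the 34.7 and 22.7% over all genes. After scaling to a common sum 11 were higher in amygdala and 2 in blood. Tubb3, the beta tubulin of neurons, was at 151, 169 and 181 FPKM in amygdala and 2.36, 1.65, 4.78 and 5.87 FPKM in blood. Tubb1, the beta tubulin that forms the marginal band of platelets, was listed at 0 in all but 1 amygdala library, where it reached 0.0421 FPKM, and was at 399.6, 328, 414 and 379.9 FPKM in blood. Tubb5, a widely expressed form, was not called, at 0.74 ± 0.08. Tubulin genes are close in sequence, so reads may be divided uncertainly among them.

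Actin regulators counted 6 genes higher in amygdala and 13 in blood among 23, with a median log2 difference of −1.36 that turned to 0.35 after scaling to a common sum. Profilins deliver actin monomers to growing filaments, and Pfn2 was at 192, 202 and 238 FPKM in amygdala and 3.00, 1.71, 2.1 and 3.79 FPKM in blood. Pfn1 was at 94.1, 99.7 and 105 FPKM in amygdala and 1295, 1349, 1452 and 1475 FPKM in blood. Both were called, in opposite directions, at log2 differences of 6.29 ± 0.18 and −3.81 ± 0.08. Actb, the cytoplasmic beta actin, was called higher in blood at −2.67 ± 0.11, whereas its percentile differed by 0.06 points in the other direction and its value after quantile normalization was 0.10. Plastins bundle actin filaments: Lcp1, the plastin of leukocytes, was at 1.96, 2.61 and 2.83 FPKM in amygdala and 169, 195, 262 and 149 FPKM in blood. Pls3, its relative of solid tissues, was at 70.4, 73.4 and 82.2 FPKM in amygdala and 1.25, 0.715, 2.21 and 0.828 FPKM in blood. Was, the Wiskott-Aldrich syndrome protein of blood cells, was at 0.366, 0.412 and 0.521 FPKM in amygdala and 49.6, 55.2, 53.9 and 46.7 FPKM in blood. Wasl, its widely expressed relative N-WASP, was at 26.6, 28.9 and 31 FPKM in amygdala and 3.50, 3.32, 4.42 and 4.24 FPKM in blood. Each pair therefore crossed between tissues with no overlap of libraries.

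The sequences just upstream of these 2 pairs are shown because both pairs act on actin and crossed between the tissues. They are the 250 bases before the start of each gene in RefSeq on GRCm38.p6, on the strand of the gene and from 5′ to 3′, with every CG dinucleotide in capitals. CG reads the same on both strands, and windows rich in it are common at broadly used promoters.
Was, chrX:8090492-8090741, minus strand: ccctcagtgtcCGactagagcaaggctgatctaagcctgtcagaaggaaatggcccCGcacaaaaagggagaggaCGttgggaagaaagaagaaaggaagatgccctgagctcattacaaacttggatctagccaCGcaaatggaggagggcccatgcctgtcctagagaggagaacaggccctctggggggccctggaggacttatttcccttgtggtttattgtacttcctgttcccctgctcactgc
Wasl, chr6:24664996-24665245, minus strand: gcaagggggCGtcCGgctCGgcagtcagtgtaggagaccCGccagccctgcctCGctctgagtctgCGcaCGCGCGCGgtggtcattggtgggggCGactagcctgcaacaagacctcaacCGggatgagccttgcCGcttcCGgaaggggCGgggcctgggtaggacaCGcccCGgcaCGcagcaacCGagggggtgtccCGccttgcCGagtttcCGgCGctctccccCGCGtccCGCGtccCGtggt
Lcp1, chr14:75130873-75131122, plus strand: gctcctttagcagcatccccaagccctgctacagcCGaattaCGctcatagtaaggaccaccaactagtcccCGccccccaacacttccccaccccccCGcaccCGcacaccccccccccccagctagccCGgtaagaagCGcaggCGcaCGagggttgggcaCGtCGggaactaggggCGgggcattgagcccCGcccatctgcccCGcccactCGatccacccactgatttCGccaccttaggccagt
Pls3, chrX:75875183-75875432, minus strand: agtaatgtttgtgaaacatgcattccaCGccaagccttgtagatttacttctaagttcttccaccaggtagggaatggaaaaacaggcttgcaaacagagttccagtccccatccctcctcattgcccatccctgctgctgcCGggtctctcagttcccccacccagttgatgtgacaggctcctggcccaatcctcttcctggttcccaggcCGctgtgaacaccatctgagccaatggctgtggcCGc
The Was window held 4 CG and that of Wasl 28, while the Lcp1 window held 16 and that of Pls3 4. Of all such windows of the table, 61.9% held at least 4 CG, 25.6% at least 16 and 7.26% at least 28. The gene that was higher in blood had the fewer CG in one pair and the more in the other, so the pairs shared no direction. Windows matched 73.7% of the compared genes by symbol, too few for a comparison between all genes higher in amygdala and all higher in blood, which was void.

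**Figure D4:**
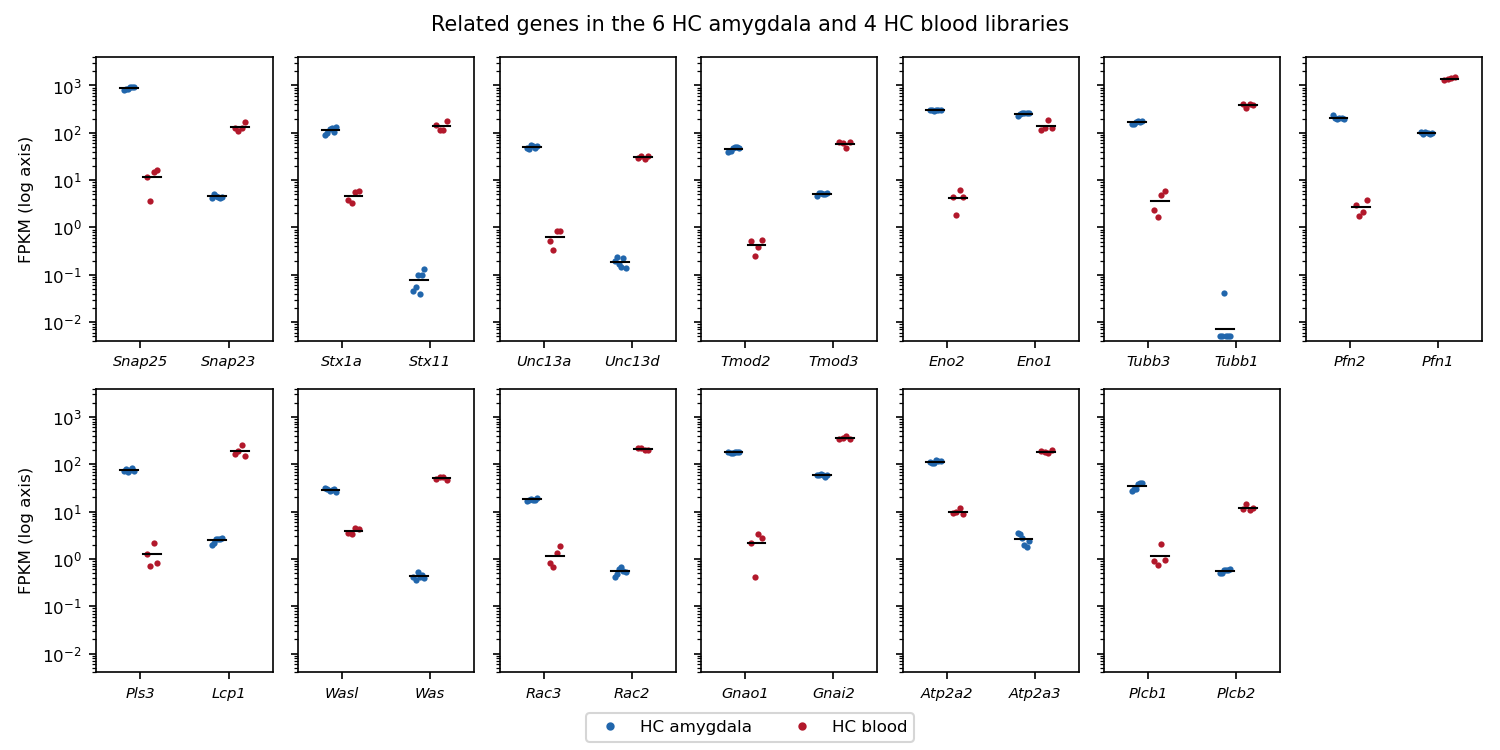
FPKM (log axis) of 13 pairs of related genes in the 6 HC amygdala libraries (blue) and the 4 HC blood libraries (red), with black bars for means and values under 0.005 drawn at 0.005. In each pair the gene at the left has its higher values in amygdala and the gene at the right its higher values in blood, except Eno1, whose amygdala values of 229 to 267 FPKM lie above its blood values of 117 to 182 FPKM.

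Signalling families also had members higher in amygdala and members higher in blood. Rac2, a small GTPase of blood cells that steers actin, was at 0.424, 0.538 and 0.685 FPKM in amygdala and 224, 218, 203 and 198 FPKM in blood. Rac3, enriched in neurons, was at 17.0, 17.9 and 19.4 FPKM in amygdala and 0.824, 0.689, 1.32 and 1.86 FPKM in blood. The 2 genes lay apart in opposite directions. Of 12 G protein alpha subunits, 7 were higher in amygdala and 4 in blood, or 7 and 0 after scaling to a common sum, with Gnao1, the abundant subunit of brain, at a log2 difference of 6.62 ± 0.43 and Gnai2 at −2.63 ± 0.07. Of 15 protein kinase C and phospholipase C genes, 8 were higher in amygdala and 5 in blood, beside 34.7 and 22.7% over all genes. Prkcd, a kinase C which the amygdala also expresses in its central nucleus, had a log2 difference of −3.93 ± 0.19. Plcb1 and Plcb2, phospholipases downstream of G proteins, had log2 differences of 4.84 ± 0.24 and −4.20 ± 0.12.

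Some transcripts best known from neurons were higher in blood. Nrgn, neurogranin, which binds calmodulin in dendrites and is also found in platelets (chromosome 9, 37544492 to 37552904), was at 536, 571 and 648 FPKM in amygdala and at 2786, 2618, 2539.6 and 4010.5 FPKM in blood. All blood libraries exceeded all amygdala libraries, with a log2 difference of −2.36 ± 0.14, but its mean percentile was 0.26 points higher in amygdala and its log2 difference after quantile normalization was 0.74. Slc6a4, the serotonin transporter, which platelets use to take up serotonin and which neurons of the raphe express, was at 0, 0.0224 and 0.0604 FPKM in amygdala and at 86.7, 69.2, 108 and 84.8 FPKM in blood.

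Microglia are the resident macrophages of the brain, and whether their markers went 1 way depended on the scaling. Of 12, 6 were higher in amygdala, 2 in blood and 4 were not called. By rank 6 were higher in amygdala and 5 in blood, and after scaling to a common sum 7 and 0. The complement chain C1qa, named after its values were seen, was at 23.8, 27.2 and 31.7 FPKM in amygdala and 1.33, 0.457, 1.75 and 2.78 FPKM in blood. P2ry12, an ADP receptor of microglia and platelets, was at 11.1, 12.2 and 13.4 FPKM in amygdala and 99.9, 90.5, 70.4 and 125 FPKM in blood. Cx3cr1, a chemokine receptor of microglia and monocytes, was not called, at −0.74 ± 0.16, but was called higher in blood by rank, at −14.7 percentile points. Of 12 endothelial and mural markers 9 were higher in amygdala and 1 in blood, which was Pecam1, a junction protein that leukocytes and platelets share, at 3.24, 3.73 and 4.05 FPKM in amygdala and 67.1, 66.6, 54.9 and 74.3 FPKM in blood. Choroid plexus markers varied within the amygdala group. Ttr, their transthyretin, ranged from 0.837 to 1027 FPKM over amygdala libraries, overlapped with blood and was not called.

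Heme is built in a series of steps in red cell precursors and iron is carried to it. Of 18 genes of heme synthesis and iron handling, 1 was higher in amygdala and 10 in blood, with a median of −1.47 that turned to 0.23 after scaling to a common sum. Fech, which inserts the iron, was at 15.4, 16.8 and 17.7 FPKM in amygdala and at 1486, 1175, 9981 and 3356 FPKM in blood. Slc25a37, which brings iron into mitochondria, was at 6.38, 6.75 and 7.19 FPKM in amygdala and at 329, 291, 3994 and 1266 FPKM in blood. The blood libraries did not overlap with amygdala for either, and library 3 was highest in both.

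Transcription factors that set cell lineages were listed by tissue beforehand, so their counts are no test of a division. All 20 factors of blood lineages were called higher in blood, and 18 of 19 factors of brain were called higher in amygdala. Spi1, the factor PU.1 of myeloid cells, was at 1.51, 1.86 and 2.22 FPKM in amygdala and 99.8, 120.2, 226 and 90.7 FPKM in blood. Nfe2, which drives the last steps of platelet formation, had a log2 difference of −10.08 ± 0.24. Bcl11a, which acts in cortical neurons and in B cells and represses fetal globin, was the factor of brain that was not called, at 12.9, 15.3 and 17.2 FPKM in amygdala and 15.8, 21.8, 11.8 and 17.3 FPKM in blood. It overlapped between the tissues.

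Genes of immune recognition were higher in blood almost throughout. All 13 genes of antigen presentation were called, with a median log2 difference of −7.05. B2m, the light chain of MHC class I, was at 55.0, 58.3 and 59.9 FPKM in amygdala and 3834, 3713, 5045 and 5763 FPKM in blood. H2-Aa, a chain of MHC class II, had a log2 difference of −11.56 ± 0.26. Of 16 genes of pattern recognition and the inflammasome 15 were higher in blood, and the exception was Tlr3, a sensor of double-stranded RNA, named after its values were seen. Tlr3 was at 1.84, 2.14 and 2.34 FPKM in amygdala and 0.316, 0.411, 0.277 and 0.882 FPKM in blood, a log2 difference of 2.06 ± 0.24 without overlap.

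Receptors that carry fast and slow transmission in the amygdala were low in blood. All 22 glutamate and GABA receptor genes were called higher in amygdala, with a median log2 difference of 6.10. Grin1, the shared subunit of NMDA receptors, was at 121, 128 and 135 FPKM in amygdala and 0.900, 0.599, 1.68 and 1.65 FPKM in blood. Gabbr1, a subunit of the GABA-B receptor, was at 115, 123 and 125 FPKM in amygdala and 6.08, 5.70, 4.98 and 5.85 FPKM in blood. The blood values of Gabbr1 lay close together, while those of Grin1 were lowest in library 2, as for Snap25.

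Stress hormones act through receptors and carrier proteins that both tissues may share, and blood is often sampled in place of brain for such genes. Of 24 stress hormone and PTSD candidate genes, 14 were higher in amygdala, 4 in blood and 6 were not called, and 19 and 2 were called after scaling to a common sum. Nr3c1, the glucocorticoid receptor, was at 10.2, 10.9 and 11.3 FPKM in amygdala and 10.7, 10.6, 10.6 and 9.49 FPKM in blood. These ranges overlapped, and the log2 difference as deposited was 0.07 ± 0.07. Scaling to a common sum moved the median difference over all genes up by 1.70, so how close these levels are depends on the scale. Nr3c2, the mineralocorticoid receptor, which binds corticosterone with higher affinity, was at 6.04, 6.27 and 8.55 FPKM in amygdala and 0.134, 0.257, 0.196 and 0.104 FPKM in blood, a log2 difference of 4.71 ± 0.19 (adjusted p = 4.64e-09). Fkbp5 and Fkbp4, immunophilins of the receptor complex, overlapped between tissues and were not called, at 0.59 ± 0.16 and 0.28 ± 0.10. Hsd11b1, which regenerates active glucocorticoid, was higher in blood, at 2.86, 3.63 and 4.9 FPKM in amygdala and 23.3, 21.4, 22.3 and 16.1 FPKM in blood.

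Of genes known to be induced by the glucocorticoid receptor, Tsc22d3 and Dusp1 were higher in blood, whereas Fkbp5, given above, was not called. Tsc22d3, which encodes GILZ, was at 13.1, 14.3 and 18.1 FPKM in amygdala and 179, 224, 307 and 334 FPKM in blood. Dusp1, a phosphatase of MAP kinases, was at 6.76, 7.65 and 15 FPKM in amygdala and 66.6, 97.3, 72.2 and 45.7 FPKM in blood. Both were called, at −4.11 ± 0.17 and −2.98 ± 0.25. After scaling to a common sum 2 genes of the stress list were called higher in blood, against 4 as deposited. The peptide system of the stress axis was on the other side: Crh, corticotropin-releasing hormone, was at 1.96, 2.42 and 2.90 FPKM in amygdala and listed at 0 in 3 of 4 blood libraries, with 0.0898 FPKM in library 2. Crhr1, its receptor, was at 4.13, 4.9 and 5.69 FPKM in amygdala and likewise above 0 in blood library 2 alone, at 0.0449 FPKM. Bdnf, a growth factor of synapses, had a log2 difference of 5.64 ± 0.28, and Ntrk2, its receptor, 6.42 ± 0.24.

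**Figure D5:**
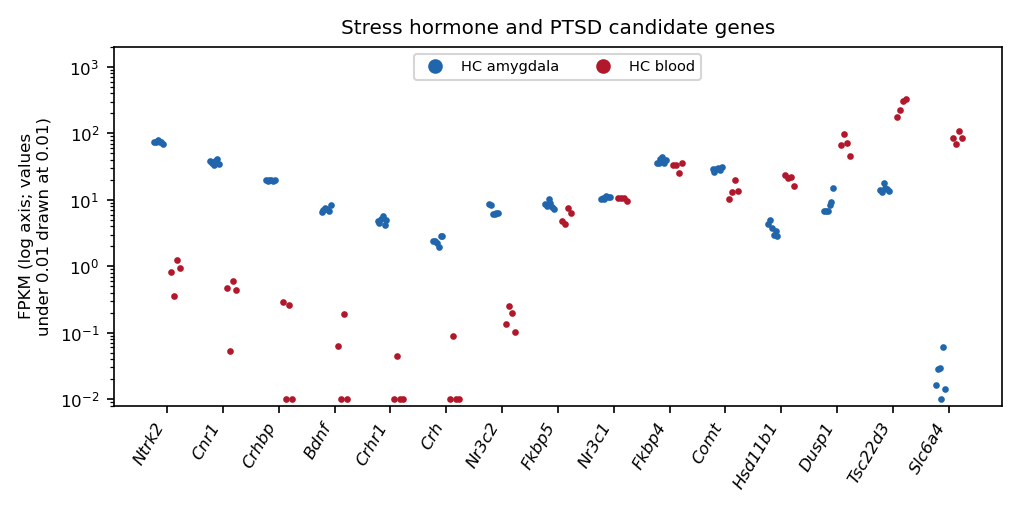
FPKM (y axis, log scale) of 15 of the 24 stress hormone and PTSD candidate genes in the 6 HC amygdala (blue) and 4 HC blood (red) libraries, with values under 0.01 drawn at 0.01. Genes run from those highest in amygdala at the left to those highest in blood at the right, and Nr3c1 lies between 9.49 and 11.3 FPKM in all 10 libraries.

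Clock genes, which keep daily time by mutual feedback, were mostly higher in amygdala, where 14 of 17 were called and 0 were called for blood. Nr1d1, the repressor REV-ERB alpha, was at 40.2, 43.4 and 45.2 FPKM in amygdala and 1.24, 0.988, 0.629 and 1.0 FPKM in blood. The hour at which mice were killed was not used here. Of 13 long noncoding RNA entries, 6 were higher in amygdala and 3 in blood, beside 34.7 and 22.7% over all genes. Neat1, the scaffold of paraspeckles, was at 18.2, 22.5 and 24.7 FPKM in amygdala and 87.2, 101, 73.9 and 95.9 FPKM in blood. Malat1, its neighbour of nuclear speckles, overlapped between the tissues, at 38.7, 81.1 and 121 FPKM in amygdala and 39.2, 39.5, 23.1 and 38.6 FPKM in blood.

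The tissue difference was then measured in conditioned mice. In FC, 4955 of the genes were called higher in amygdala (35.7%) and 3278 higher in blood (23.6%), and in Immo+FC 4754 (34.2%) and 3147 (22.7%). Of the 4814 genes higher in HC amygdala, 4672 were called in the same direction in FC, 4555 in Immo+FC and 4517 in all conditions. Of the 3155 higher in HC blood, the counts were 3034, 2963 and 2928. One gene of the first set and 1 of the second were called in the other direction in FC. They were the entry of Meg3 merged with 2 microRNA genes, which was listed at 0 in all FC amygdala libraries, and Filip1l, which was listed at 0 in all FC and Immo+FC blood libraries and was also the 1 such gene in Immo+FC. Both reversals thus rest on values listed at 0.

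The size of the tissue difference was tested between conditions in a single fit of all 30 libraries. Against FC, 779 genes had a difference toward amygdala that was smaller in HC (5.61%) and 59 one that was larger (0.425%). Against Immo+FC the counts were 591 (4.26%) and 143 (1.03%), and 428 genes were smaller in both. Of the 779 genes, 696 were higher in HC amygdala than in HC blood, and all 779 had a higher median in HC blood than in FC blood. Of the 591 genes, 590 had a higher median in HC blood than in Immo+FC blood. Snap25 was one of the 779, at 11.6 ± 5.68 FPKM (SD, n = 4) in HC blood and 1.59 ± 1.61 FPKM (SD, n = 5) in FC blood, beside 882 ± 54.5 and 886 ± 70.4 FPKM (SD, n = 6 each) in amygdala. The higher level of brain markers in HC blood given above moved with these counts, and its part in them was not tested. The counts depended on blood library 2, without which 1408 genes differed from FC and 1265 from Immo+FC in either direction, against 838 (6.04%) and 734 (5.29%) with it, and without blood library 4 the second count was 421. In the 26 libraries whose sample number is present in both tissues, 591 and 289 genes differed from FC and Immo+FC, and with that number as a replicate block 445 and 48.

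Among the 5 genes with the smallest p of each test were Filip1l, Cmss1, Dpf1, Epas1 and the merged Meg3 entry, whose change lay in amygdala. Dpf1, a chromatin factor of neurons, was at 0.515, 0.144, 0.552 and 0.390 FPKM in HC blood and listed at 0 in all 5 FC blood libraries. Epas1, a hypoxia-inducible factor of endothelium, was at 1.18 ± 0.161 FPKM (SD, n = 4) in HC blood, 0.895 ± 0.0852 FPKM (SD, n = 5) in FC blood and 0.512 ± 0.101 FPKM (SD, n = 5) in Immo+FC blood. Filip1l, at 33.7 to 50.9 FPKM in HC blood, overlaps Cmss1 on chromosome 16 on the opposite strand, and Cmss1, at 1.12 to 2.94 FPKM in HC blood, was also listed at 0 in all FC and Immo+FC blood libraries. Cmss1 was no longer called higher in HC amygdala without blood library 1 or 3, at 1.45 and 1.48. Since the library kit is not stated to keep strand, reads of these genes cannot be told apart where they overlap.

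Genes higher in amygdala had longer transcripts than genes higher in blood. The median longest transcript was 4002 bases for genes higher in amygdala, 2650.0 bases for those higher in blood and 3310.0 bases for those not called, over the 93.6% of genes with a length in GENCODE. The median span of the gene on the chromosome was 38.3 kb, 15.7 kb and 22.2 kb. Of 634 genes with transcripts under 1 kb, 15.8% were higher in amygdala and 42.9% in blood, and of 751 genes over 8 kb, 59.0% and 5.99%. The shares changed step by step in between, with 23.2 and 34.1% from 1 to 2 kb, 31.4 and 24.2% from 2 to 4 kb and 43.5 and 14.6% from 4 to 8 kb. The estimate of FPKM includes transcript length, and RNA quality was not among the values used here, so their part in this trend was not tested.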

How the data were processed

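The study sequenced amygdala punches and trunk blood of mice in HC, FC and Immo+FC groups with poly-A selected TruSeq libraries, in paired reads with 8 pools per lane. Groups and replicates follow the sample labels. Reads were mapped by the authors with STAR 2.3 on mm10, and the deposited FPKM values were computed with Cufflinks 2.1.1, with 1 value per gene entry and library. The deposited mapping table gives the count of sequences and the percent of reads mapped for each library. The authors describe processing each tissue separately, so levels were also ranked within libraries. Read counts per gene were not used here, so no interval for counting error is given, and an exact 0 can be a failed estimate. Of the compared entries, 161 join the symbols of several genes, 107 were listed at 0 in all HC amygdala libraries and 201 in all HC blood libraries.

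In limma 3.58.1 (R 4.3.3, variances moderated with a trend and robustly), log2(FPKM + 0.1) was tested two-sided against a 2-fold change, with p-values adjusted by Benjamini and Hochberg over all 13885 genes. The interaction of tissue and condition was tested in 1 fit of 6 groups. Simulated data had 200 of 13885 genes changed between HC amygdala and HC blood. In them 92% of 8-fold and 74% of 4-fold changes were recovered with 0 false calls. The unchanged genes had no true difference and were tested against a 2-fold change. False calls were therefore unlikely from the start, and their absence says little about error control. In the measured HC libraries 57.4% of genes were called, and recovery with such a share changed was not tested. The number of false calls under a scale that differs between the tissues was not tested. No 2 libraries were identical. The genes compared and the gene lists were chosen with earlier results of these data known. Named genes come from the 10 highest of each tissue, the 10 largest differences each way, the 10 most alike in rank, related gene sets, the stress gene list, label checks, up to 6 abundant members of other lists and the 5 smallest p of each interaction, and the examples given were picked among these with their values known. Some items are not reported here. Positions and lengths are from GENCODE vM21 on GRCm38.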

Additional observations from a re-analysis of the deposited data

Results flagged for a closer look

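In 206 groups of libraries of the named genes, 22 held a value far from the rest of its group by Dixon's criterion at 95%, where chance gives about 1 in 20 groups. Blood library 3 gave 8 of these. In it S100a8 was at 13855, Ftl1 at 57090, Gpx1 at 49348, Ube2l6 at 39515, Isg20 at 25088, Sptb at 13.1 and Plcb1 at 2.06 FPKM, all highest, and Malat1 at 23.1 FPKM, lowest. Its summed erythroid and neutrophil markers were also the highest of the 4 HC blood libraries, and their part in these values was not tested.

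In the other blood libraries Nrgn at 4010.5 FPKM and Nr3c1 at 9.49 FPKM stood apart in library 4, which had the fewest sequences, Vamp7 at 6.47 FPKM in library 1, and Crh at 0.0898 and Crhr1 at 0.0449 FPKM in library 2. In amygdala library 1 these were Nrgn at 648, Actb at 398 and Pfn2 at 238 FPKM. In amygdala library 3 Eno2 at 287 FPKM was lowest, and Tubb1 at 0.0421 and Tsc22d3 at 18.1 FPKM were highest. Gabbr1 was lowest in amygdala library 2 at 115 FPKM, Dusp1 highest in library 6 at 15 FPKM and 1 merged entry of Hba-a1 with Hba-a2 highest in library 5 at 37.6 FPKM. The causes were not tested.

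The tissue difference of some named genes differed between conditions in limma's interaction test at an adjusted p under 0.05. HC minus FC was −3.20 for Snap25, −2.24 for Slc17a7, −1.80 for Cpe, −1.80 for Unc13a, −1.34 for Tmod2, −2.45 for Eno2, −1.24 for Aldoc, −0.71 for Ldhb, −1.26 for Pfn2, −2.22 for Gnao1, −2.18 for Ntrk2, −1.72 for Cnr1, the cannabinoid receptor of neurons, and −2.32 for Grin1 on the log2 scale. It was −2.42 for Dpf1, −0.50 for Epas1, −8.75 for Filip1l and −4.25 for Cmss1, and 9.68 for the merged Meg3 entry. Of these, Dpf1, Filip1l and Cmss1 were listed at 0 in FC blood and the Meg3 entry in FC amygdala.

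HC minus Immo+FC was −1.60 for Cpe, −1.60 for Unc13a, −1.58 for Tmod2, −2.89 for Eno2, −1.30 for Aldoc, −2.03 for Tubb3, −0.79 for Tsc22d3, −2.11 for Ntrk2, −0.41 for Gabbr1, −2.11 for Dpf1, −1.09 for Epas1, −8.81 for Filip1l and −4.21 for Cmss1, the last 2 listed at 0 in Immo+FC blood. The median level of brain markers was higher in HC blood libraries 1, 3 and 4 than in any FC or Immo+FC blood library, and its part in these differences was not tested.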

How the results depend on the processing

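The counts of genes higher in either tissue kept within 1.5 times of the reported ones under most settings. With every library scaled to a common sum, 8298 genes were higher in amygdala and 1598 in blood in HC, 8642 and 1791 in FC and 8501 and 1734 in Immo+FC, and 558 and 429 genes differed in the interactions with FC and Immo+FC, against 838 and 734 as reported. Percentile ranks gave 4795 genes higher in HC blood. With no minimum change 5208, 5466 and 5227 genes were higher in blood in HC, FC and Immo+FC, and with a 4-fold minimum 1966 in HC. A pseudocount of 1 gave 460 genes for the tissue difference in HC against that in Immo+FC. Spearman's correlation of the tissue means rose from 0.310 to 0.413 over genes of at least 1 FPKM in both tissues. The causes were not tested, apart from the fewer genes that a stricter minimum lets pass.

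Leaving out 1 library at a time gave 4739 to 4883 genes higher in HC amygdala and 3081 to 3172 in HC blood, 4902 to 4953 and 3235 to 3268 in FC, and 4642 to 4765 and 3064 to 3139 in Immo+FC. The interactions ranged from 625 to 1408 genes with FC and from 421 to 1265 with Immo+FC, both highest without HC blood library 2, and the second lowest without HC blood library 4. Sptb was called only with all libraries or without HC blood library 3, among these settings.

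Amygdala and blood libraries share sample numbers. The study took both tissues of its mice, but no source used here says that equal numbers are the same pool. Deviations of same-numbered HC libraries correlated at −0.021 to 0.036, and not every library correlated best with its own number, which does not settle whether the mice were the same. With the number as a replicate block, 4586 and 2951 genes were higher in HC amygdala and HC blood, beside 4638 and 2990 in the same 8 libraries without it, and 445 and 48 genes differed in the interactions with FC and Immo+FC, beside 591 and 289 in the same 26 libraries without it.

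Among named genes a direction turned for Mir703, to a log2 difference of 0.95 after quantile normalization and 0.0588 percentile points by rank, for Nrgn, to 0.74 and 0.26, and for Actb, to 0.10 and 0.0582, and for Ank1 without blood libraries 3 and 4, to 1.36. The settings without these libraries, with array weights by tissue, without the block in 8 or 26 libraries, without genes listed at 0, and the single libraries left out and the block for counts in FC and Immo+FC were chosen after seeing the data.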

Other observations

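Further gene lists were counted in the same way, beside 34.7% higher in amygdala and 22.7% higher in blood over all genes. Of 10 excitatory neuron markers, 9 were higher in amygdala and the 1 higher in blood was Nrgn. Of 18 compared genes that mark the amygdala and its neighbouring regions, 15 were higher in amygdala, 2 in blood and 1 was not called, with a median log2 difference of 4.86. All 7 compared eosinophil and basophil markers were higher in blood, with a median of −5.10, and 3 of them were listed at 0 throughout a tissue. Of 10 choroid plexus and ependyma markers 5 were higher in amygdala and 1 in blood. By rank these counts were 2 and 1, and after quantile normalization 1 and 1. Of 4 compared skin, thyroid and thymus genes 1 was higher in amygdala and 2 in blood. Of 23 Hox genes, 22 stayed below 1 FPKM in both tissues and 1 was higher in blood.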
